A study of Caenorhabditis elegans with 16 samples.

Results

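The small RNA of adult male C. elegans with 2 partial prg-1 alleles was compared directly: the 3 libraries of the prg-1 RNase mutant against the 3 libraries of the prg-1 ΔPAZ mutant. These 6 libraries were chosen by the genotype in their titles, out of 16 in the series. The other libraries are 5 prg-1 null and 5 wild type ones, and their values are given beside the comparison where they help to place it. The design text of the series gives the RNase mutant as RNase dead. The ΔPAZ mutant lacks the PAZ domain. The labels give the same handling for all 4 groups. For each library 20 to 30 males were picked at mid-L4, kept at 25 °C, and collected as whole adult animals 24 hours later, with no treatment. The titles of wild type replicates 4 and 5 and null replicate 5 lack the word piRNA, which all other titles hold. Whether these libraries were prepared apart from the rest was not tested. Nothing in the labels says whether replicates came from separate cultures, so the p-values measure only the spread between these libraries, which may be technical. Whole animals hold soma and germline, so fewer germ cells and less small RNA per cell cannot be told apart here. The mRNA of prg-1 itself is not measured by small RNA libraries, so the alleles could not be checked on it.

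PRG-1 is the Piwi-clade Argonaute of C. elegans. It binds piRNAs, which in this worm are 21U-RNAs: short RNAs that begin with U, mostly encoded by very many separate small genes in broad clusters on chromosome IV and made in the germline. A piRNA held by PRG-1 directs silencing of the transcripts it pairs with, largely through secondary small RNAs made on those transcripts, and those carry a 5′ triphosphate. In an Argonaute, the PAZ domain holds the 3′ end of the small RNA and the PIWI domain carries the RNase activity, known as slicing.

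The libraries differed in depth. RNase replicates 1, 2 and 3 had 2258068, 1377683 and 1117777 genome-mapped reads, and ΔPAZ replicates 1, 2 and 3 had 396813, 663498 and 954712. One read was thus worth 0.443 to 0.895 reads per 1000000 genome-mapped reads (RPM) in the RNase mutant and 1.05 to 2.52 RPM in ΔPAZ. Reads mapped to the genome made up 72.8 ± 4.13% in the RNase mutant and 47.0 ± 4.92% of all reads in ΔPAZ (SD, n = 3 each), against 73.0% in the null and 53.2% in wild type. In the ΔPAZ group 2 libraries stood apart in different measures: replicate 3 was highest in piRNA reads, and replicate 2 had the most reads in bins with rRNA genes and the fewest in most bins of the microRNA families described below. Results that rest on one of them are given with the value without it.

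RNase mutant males had several times as many reads at piRNA loci as ΔPAZ males. Sense piRNA reads came to 3771, 3532 and 2161 RPM in RNase replicates 1, 2 and 3, and to 650.2, 694.8 and 1599 RPM in ΔPAZ replicates 1, 2 and 3. These were 8515, 4866 and 2416 reads in the RNase mutant and 258, 461 and 1527 reads in ΔPAZ. All RNase libraries lay above all ΔPAZ libraries, and ΔPAZ replicate 3 came closest to them. The means were 3155 ± 869 RPM in the RNase mutant and 981 ± 536 RPM in ΔPAZ (SD, n = 3 each), a ratio of 3.21. The exact two-sided permutation test gave p = 0.1. This is the lowest value possible with 3 libraries per group, so none of the 13 single measures compared this way can pass 0.05 (adjusted p = 0.108). The ratio was 4.69 without ΔPAZ replicate 3, and 2.70 when bins with rRNA genes were left out of the totals. Null males had 377 RPM and wild type males 2039 RPM on average.

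The ratio was smaller in the reads that the authors counted as 21U only and larger in the rest. The 21U-only reads, the class closest to mature piRNAs by its name, stood at 1265, 1267 and 734 RPM in RNase replicates 1, 2 and 3, and at 415.8, 375.3 and 1060 RPM in ΔPAZ replicates 1, 2 and 3. The groups overlapped, since ΔPAZ replicate 3 lay above RNase replicate 3. The means were 1089 ± 307 RPM in the RNase mutant and 617 ± 384 RPM in ΔPAZ, a ratio of 1.76 (exact permutation p = 0.2, adjusted p = 0.2, n = 3 each). Without ΔPAZ replicate 3 the ratio was 2.75. Both means lay far above that of the null, 12.1 RPM, and the wild type mean was 1266 RPM.

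Other sense reads, meaning the sense piRNA reads outside the 21U-only class, had the largest ratio of the piRNA classes. They stood at 2506, 2265 and 1427 RPM in RNase replicates 1, 2 and 3, and at 234, 319.5 and 539 RPM in ΔPAZ replicates 1, 2 and 3. The groups did not overlap. The means were 2066 ± 566 RPM in the RNase mutant and 364 ± 157 RPM in ΔPAZ, a ratio of 5.67 (exact permutation p = 0.1, adjusted p = 0.108, n = 3 each). The ΔPAZ mean was equal to the null mean of 364 RPM, while the RNase mean lay above the wild type mean of 774 RPM. The sources used here do not state how the authors told 21U-only reads from the rest, and what the other sense reads are was not tested.

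The composition of the piRNA reads therefore differed. The 21U-only share of sense reads was 33.5% (Wilson 95% interval 32.5 to 34.6%), 35.9% (34.5 to 37.2%) and 34.0% (32.1 to 35.9%) in RNase replicates 1, 2 and 3. It was 64.0% (57.9 to 69.6%), 54.0% (49.4 to 58.5%) and 66.3% (63.9 to 68.6%) in ΔPAZ replicates 1, 2 and 3. No interval of one group reached one of the other, although the intervals cover counting error only. The means were 34.5 ± 1.24% in the RNase mutant and 61.4 ± 6.51% in ΔPAZ (exact permutation p = 0.1, n = 3 each), beside 3.91% in the null and 59.5% in wild type. This share does not depend on the total by which reads are scaled.

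Antisense reads at the same loci were fewer in every library than sense reads. They stood at 210, 221 and 135 RPM in RNase replicates 1, 2 and 3 and at 42.8, 64.8 and 112 RPM in ΔPAZ replicates 1, 2 and 3, from 474, 305 and 151 reads in the RNase mutant and 17, 43 and 107 reads in ΔPAZ. The groups did not overlap, and the means of 189 ± 46.9 RPM in the RNase mutant and 73.2 ± 35.4 RPM in ΔPAZ had a ratio of 2.58 (exact permutation p = 0.1, n = 3 each). The null mean of 114 RPM and the wild type mean of 111 RPM lay between them. Whether the antisense reads are secondary small RNAs or overlapping transcripts was not tested.

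**Figure D1:**
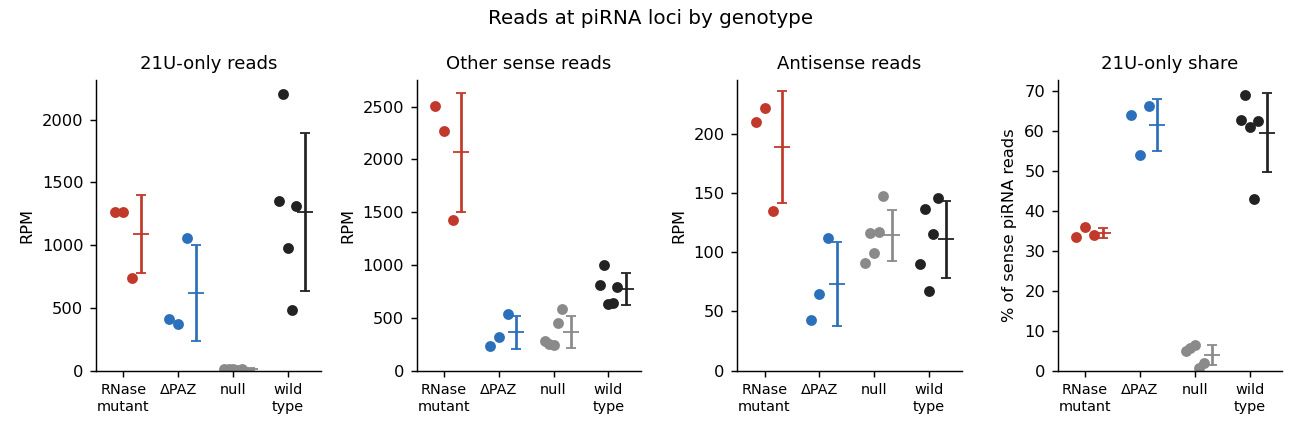
Reads at piRNA loci per library in RPM (21U-only, other sense and antisense reads) and the 21U-only percentage of sense reads, with RNase mutant, ΔPAZ, null and wild type libraries as points and the mean ± SD as bars. The 3 RNase libraries lie above the 3 ΔPAZ libraries in other sense and antisense reads and below them in the 21U-only share, while the groups overlap in 21U-only reads.

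The RNase reads were also spread over more piRNAs. After thinning every library to 396813 genome-mapped reads, 645, 583 and 379 piRNA rows were expected to have at least 1 read in RNase replicates 1, 2 and 3, against 70, 86.2 and 199 in ΔPAZ replicates 1, 2 and 3. The groups did not overlap: the means were 536 ± 140 in the RNase mutant and 118 ± 70.1 in ΔPAZ (exact permutation p = 0.1, n = 3 each), beside 71.9 in the null and 298 in wild type. The ratio of RNase to ΔPAZ means was 4.53, and 6.86 without ΔPAZ replicate 3. Part of this is the larger number of piRNA reads, so libraries were also compared at an equal 258 piRNA reads. There 191, 185 and 173 rows were expected in RNase replicates 1, 2 and 3, and 70, 84.3 and 128 in ΔPAZ replicates 1, 2 and 3. The difference was smaller but the groups still did not overlap, with means of 183 ± 9.14 in the RNase mutant and 94.1 ± 30.1 in ΔPAZ, a ratio of 1.94.

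The most read piRNA row took 4.12, 3.74 and 5.88% of the sense reads in RNase replicates 1, 2 and 3, and 8.91, 8.46 and 9.50% in ΔPAZ replicates 1, 2 and 3. The 100 most read rows held 43.9, 48.2 and 53.2% of the reads in RNase replicates 1, 2 and 3 and 100, 100 and 75.6% in ΔPAZ replicates 1, 2 and 3, of which replicates 1 and 2 had fewer than 100 rows with a read. The ratio of the means was 0.527, and 0.703 at an equal 258 piRNA reads, so the size of this difference moves with depth.

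A larger part of the detected rows was common to all 3 replicates in the RNase mutant, which had more reads, than in ΔPAZ. Relative to chance, the rows shared by pairs came to 7.84 for RNase replicates and 32.4 for ΔPAZ replicates. That ratio can rise higher where fewer rows are detected, as in ΔPAZ, so it does not rank the agreement of replicates between the groups. Of 1809 rows with a read in any RNase library, 249 (13.8%) had reads in all 3, and these held 55.9% of the group's reads. Of 333 rows with a read in any ΔPAZ library, 18 (5.41%) had reads in all 3, holding 33.3% of the reads. The depth of the groups differs, so these shares describe the libraries and no more. The row with most RNase reads had 351, 182 and 103 reads in replicates 1, 2 and 3, and the row with most ΔPAZ reads had 23, 12 and 145, most of them in replicate 3.

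Single piRNAs could not be compared between the alleles. The number of rows detected in both libraries of a pair was 7.84 times that given by chance for pairs within the RNase mutant and 32.4 times for pairs within ΔPAZ, but 0.656 times for pairs of an RNase and a ΔPAZ library. The columns of the RNase mutant and ΔPAZ thus do not share a row order, so no piRNA is named here and no test was made row by row. Sums, numbers of rows and concentration do not depend on that order.

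**Figure D2:**
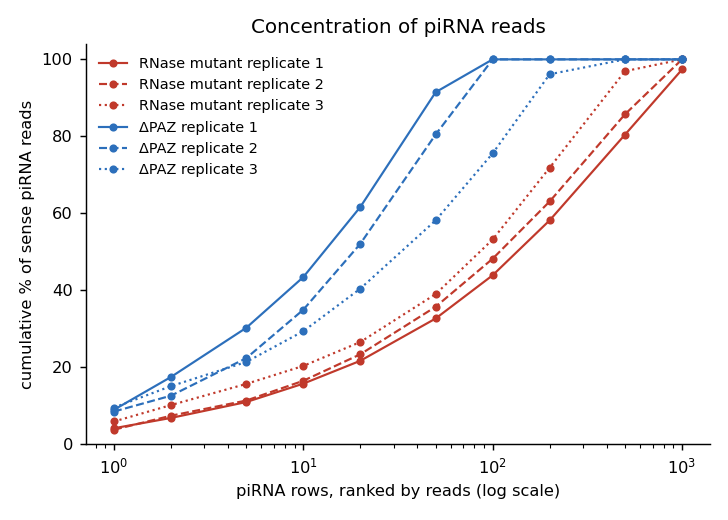
Cumulative percentage of sense piRNA reads (vertical axis) against the number of piRNA rows ranked by reads (horizontal axis, log scale), with 1 line per library. The RNase curves lie below the ΔPAZ curves: the first 10 rows hold 15.7, 16.5 and 20.3% of the reads in RNase replicates 1, 2 and 3 and 43.4, 34.9 and 29.3% in ΔPAZ replicates 1, 2 and 3. Reads were not thinned to equal numbers here (2416 to 8515 in RNase libraries, 258 to 1527 in ΔPAZ libraries), and the size of the gap moves with depth.

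Over the whole genome, piRNA loci included, the alleles differed in many regions. Reads were compared in 1006 bins of 100000 bp (ce11 genome), in which the reads of all genes and both strands are summed. Of these bins 345 (34.3%) passed the test (edgeR quasi-likelihood F test, Benjamini-Hochberg adjusted p under 0.05): 250 (24.9%) were higher and 95 (9.44%) lower in the RNase mutant. The libraries of the alleles did not overlap in 521 bins (51.8%), of which 364 (36.2%) were higher and 157 (15.6%) lower in the RNase mutant. The median log2 fold change of all bins was 0.25. With TMM scaling, which takes the bulk of bins as level, the median was -0.027, and 382 bins (38.0%) passed, 211 higher and 171 (17.0%) lower. The balance of higher and lower calls thus depends on the scaling (72.5% higher with genome-mapped reads as library size, 55.2% with TMM). Calls of opposite direction numbered 0 under each alternative tried.

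Calls were most frequent in bins with many reads. Among the 252 bins with the lowest mean RPM, 12 were higher and 26 lower in the RNase mutant (median log2 fold change -0.14). Among the 252 with the highest mean, 116 were higher and 26 lower (median 0.76). With TMM scaling the counts were 3 higher and 44 lower in the first of these sets, and 100 higher and 39 lower in the second.

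**Figure D3:**
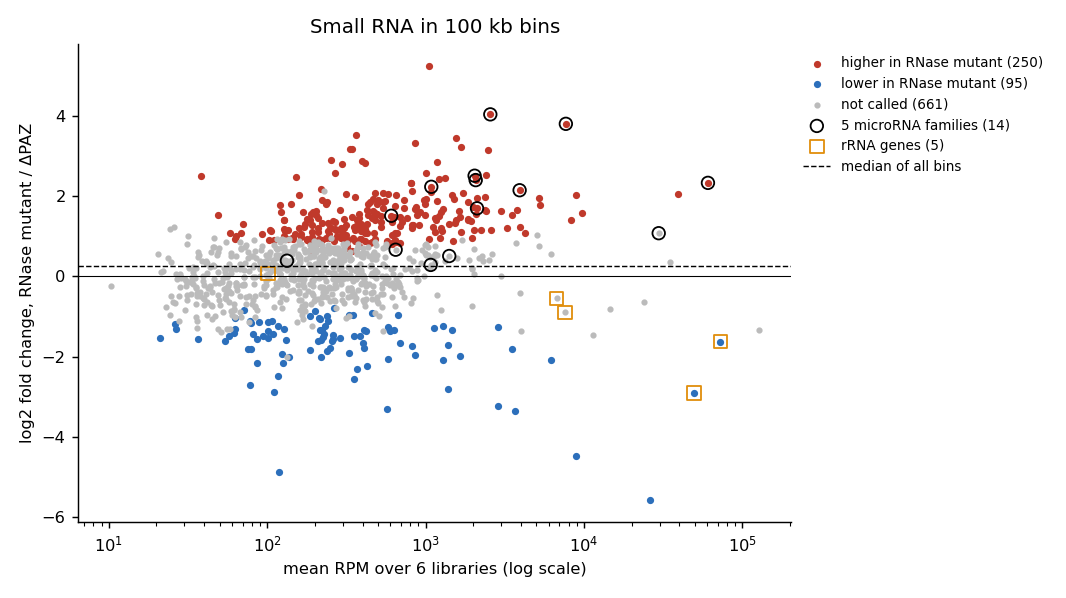
Log2 fold change of each 100 kb bin, RNase mutant over ΔPAZ (vertical axis), against its mean RPM over the 6 libraries (horizontal axis, log scale); red bins were higher and blue ones lower (adjusted p under 0.05), black circles mark bins of 5 microRNA families and orange squares bins with rRNA genes. Most family bins lie above the dashed median of 0.25, and 4 of the 5 rRNA bins lie below 0.

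The bins with most reads of all pointed in opposite directions. The single bin IV:12700001-12800000, which holds 4 snRNA genes of the annotation and 19 protein-coding genes, took 6.42, 7.002 and 8.24% of all genome-mapped reads in RNase replicates 1, 2 and 3 and 26.7, 12.3 and 15.4% in ΔPAZ replicates 1, 2 and 3. The groups did not overlap, but the bin did not pass the test (log2 fold change -1.33 ± 0.75 (SE), edgeR adjusted p = 0.178). The 5 bins with rRNA genes together held 4.40, 7.68 and 5.32% in RNase replicates 1, 2 and 3 and 14.3, 33.5 and 16.6% in ΔPAZ replicates 1, 2 and 3. Ribosomal RNA fragments enter small RNA libraries as breakdown products.

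Of the 5 rRNA bins, 2 fell and 0 rose in the RNase mutant (median log2 fold change -0.89), and with TMM scaling 4 fell. The bin V:17100001-17200000, with 14 rRNA genes, stood at 9950, 9732 and 15312 RPM in RNase replicates 1, 2 and 3 and at 72664, 102591 and 86824 RPM in ΔPAZ replicates 1, 2 and 3. The groups lie apart (log2 fold change -2.90 ± 0.97, edgeR adjusted p = 0.0239), but the call was lost without RNase replicate 1, 2 or 3 or ΔPAZ replicate 2 (adjusted p up to 0.0833). Wild type libraries, which are part of the same fit, ranged from 7190 to 179063 RPM in this bin. The bin I:15000001-15100000, with 4 rRNA genes, stood at 21823, 57414 and 27144 RPM in RNase replicates 1, 2 and 3 and at 51420, 215402 and 61897 RPM in ΔPAZ replicates 1, 2 and 3. Its groups overlap, and it passed narrowly (log2 fold change -1.63 ± 0.63, edgeR adjusted p = 0.0482). It was not called without ΔPAZ replicate 2, where its log2 fold change was -0.68, nor without RNase replicate 1 or RNase replicate 3. Because these bins hold a large part of the ΔPAZ reads, every other bin's RPM in ΔPAZ is lowered by them. With library sizes counted without the rRNA bins, 284 bins (28.2%) passed, 152 (15.1%) higher and 132 (13.1%) lower (median -0.029), and that scaling is given below where it ends the call of a single bin.

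Many of the bins with microRNA genes rose. MicroRNAs are short RNAs cut from hairpins and held by other Argonautes than PRG-1, so they serve as a view of the libraries beyond piRNAs. Of 182 bins with a microRNA gene, 57 (31.3%) were higher and 14 (7.69%) lower in the RNase mutant, against 24.9 and 9.44% of all bins, and their median log2 fold change was 0.57 beside 0.25. With TMM scaling the counts were 52 higher and 24 lower (median 0.29), and with library sizes without rRNA bins 42 higher and 19 lower. All 182 bins together held 52.9 ± 0.641% of genome-mapped reads in the RNase mutant and 52.6 ± 7.74% in ΔPAZ (SD, n = 3 each). The groups overlapped, so the summed share of the whole list did not differ. A difference appeared only when 3 of these bins were left aside, those with rRNA genes and IV:12700001-12800000. The remaining microRNA bins held 44.0 ± 1.74% in the RNase mutant and 24.9 ± 3.397% in ΔPAZ (SD, n = 3 each), beside 34.7% in the null and 30.2% in wild type.

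The let-7 family times larval development: let-7 itself acts late, and mir-48, mir-84 and mir-241 act with it earlier. All 3 bins with its genes rose in the RNase mutant. Beside the counts of this and the next 4 families, 24.9% of all bins rose, and 46.0% of the 252 bins with the highest mean RPM. The let-7 bin, X:14700001-14800000, stood at 3976, 3109 and 3369 RPM in RNase replicates 1, 2 and 3 and at 950.1, 219 and 811 RPM in ΔPAZ replicates 1, 2 and 3. Every RNase library lay more than 3-fold above the highest ΔPAZ library (log2 fold change 2.40 ± 0.41, edgeR adjusted p = 0.000144). The mir-84 bin, X:16000001-16100000, rose by 2.24 ± 0.40 on the log2 scale (adjusted p = 0.000207) and the mir-48 and mir-241 bin, V:14300001-14400000, by 1.70 ± 0.39 (adjusted p = 0.00185).

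The lin-4 family, which starts the same timing pathway, also rose in both of its bins. The lin-4 bin, II:5900001-6000000, stood at 756, 868 and 1072 RPM in RNase replicates 1, 2 and 3 and at 433, 119 and 394 RPM in ΔPAZ replicates 1, 2 and 3, with no overlap (log2 fold change 1.51 ± 0.43, edgeR adjusted p = 0.00841). Its adjusted p was 0.0514 with TMM scaling and 0.0511 without ΔPAZ replicate 2. The mir-237 bin, X:8100001-8200000, which also holds 9 tRNA genes, rose by 2.15 ± 0.48 (adjusted p = 0.00150).

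The mir-51 family, needed in embryos, was far higher in 2 of its 3 bins. The bin of mir-51 and mir-53, IV:11000001-11100000, stood at 4323, 4129 and 6047 RPM in RNase replicates 1, 2 and 3 and at 257, 264 and 356 RPM in ΔPAZ replicates 1, 2 and 3 (log2 fold change 4.04 ± 0.61, edgeR adjusted p = 4.91e-05). The bin of mir-54, mir-55 and mir-56, X:13100001-13200000, stood at 12861, 13894 and 16280.5 RPM in RNase replicates 1, 2 and 3 and at 1247, 800.3 and 1028 RPM in ΔPAZ replicates 1, 2 and 3 (log2 fold change 3.81 ± 0.67, adjusted p = 0.000205). In both bins the groups lie far apart. The bin of mir-52, IV:14000001-14100000, which lies in a piRNA cluster and holds 298 piRNA genes, was not called: it stood at 1336, 1097 and 1120 RPM in RNase replicates 1, 2 and 3 and at 1058, 641 and 1212 RPM in ΔPAZ replicates 1, 2 and 3, which overlap (log2 fold change 0.29 ± 0.33, adjusted p = 0.529).

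The mir-58 family, among the most abundant of worm microRNAs, rose in 1 of its 4 bins. The bin of mir-80, III:8800001-8900000, which also holds mir-90 and mir-238, stood at 93934, 114763 and 94978 RPM in RNase replicates 1, 2 and 3 and at 30213, 8767 and 21224 RPM in ΔPAZ replicates 1, 2 and 3 (log2 fold change 2.33 ± 0.58, edgeR adjusted p = 0.00342). It ranked the third of all bins in mean RPM over the 6 libraries. The mir-81 and mir-82 bin, X:2400001-2500000, stood at 42846, 40625.5 and 37239 RPM in RNase replicates 1, 2 and 3 and at 26882, 8145 and 22123 RPM in ΔPAZ replicates 1, 2 and 3. Its groups did not overlap, but it was not called (1.08 ± 0.50, adjusted p = 0.101). The mir-58a bin (0.51 ± 0.34) and the bin of mir-58b and mir-58c (0.39 ± 0.32) overlapped between groups and were not called.

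The mir-35 family acts in oocytes and early embryos. Its bin of mir-42, II:11800001-11900000, with 6 other microRNA genes, rose by 2.51 ± 0.47 (edgeR adjusted p = 0.000360). It stood at 3640, 4030 and 2742 RPM in RNase replicates 1, 2 and 3 and at 829, 223 and 774 RPM in ΔPAZ replicates 1, 2 and 3, with no overlap. The bin of mir-35 to mir-41, II:11500001-11600000, overlapped between groups and was not called (0.67 ± 0.28, adjusted p = 0.0716). Over all 5 families, the 14 bins held 18.4 ± 1.03% of genome-mapped reads in the RNase mutant and 4.76 ± 2.34% in ΔPAZ (SD, n = 3 each), beside 10.9% in the null and 7.36% in wild type. In ΔPAZ the lowest share, 2.19%, was that of replicate 2. Most of these reads were in the 4 bins of the mir-58 family, which held 14.3 ± 1.25% in the RNase mutant and 4.04 ± 2.07% in ΔPAZ.

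**Figure D4:**
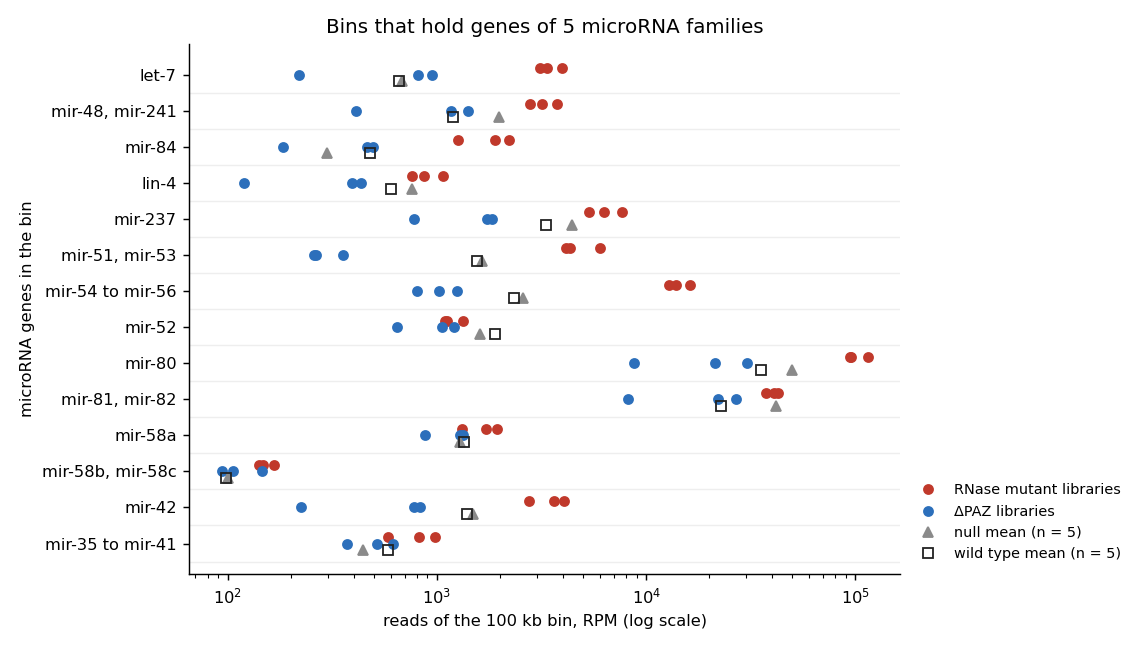
Reads of the 14 bins that hold genes of 5 microRNA families, in RPM (horizontal axis, log scale), with RNase mutant and ΔPAZ libraries as points and the null and wild type means as triangles and squares. In 9 of the bins a test found the RNase mutant higher, beside 24.9% of all bins and 46.0% of the 252 bins with the highest mean RPM. The points of let-7, mir-51 and mir-54 to mir-56 lie far to the right of their ΔPAZ points, while mir-52, mir-58a and mir-35 to mir-41 overlap.

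A list of marker microRNAs covered 10 bins: 6 for neurons, muscle, intestine, germline and embryo, 2 for developmental timing (let-7 and lin-4, described above) and 2 for broadly expressed microRNAs (mir-71 and mir-52). Of the 10, 6 rose and 0 fell, against 24.9 and 9.44% of all bins (5 rose and 1 fell with TMM scaling, and 4 rose and 0 fell with library sizes without rRNA bins). Among the 6 tissue bins, 3 rose: those of mir-124, mir-60 and mir-42. For neurons, the bin of mir-124, IV:11800001-11900000, stood at 635.5, 537 and 541 RPM in RNase replicates 1, 2 and 3 and at 194, 321 and 437 RPM in ΔPAZ replicates 1, 2 and 3 (log2 fold change 0.84 ± 0.30, edgeR adjusted p = 0.0325). It was not called with library sizes without rRNA bins (0.55) or without any one of RNase replicates 1, 2 and 3 or ΔPAZ replicates 1 and 2. The bin of lsy-6, a regulator of neuron asymmetry, was not called (0.85 ± 0.34, adjusted p = 0.0542). For muscle, the bin of mir-1, I:6100001-6200000, which also holds mir-235 and an rRNA gene, was at 6266, 3798 and 6311 RPM in RNase replicates 1, 2 and 3 and at 9055, 7242 and 7680 RPM in ΔPAZ replicates 1, 2 and 3. It lay lower in every RNase library but was not called (-0.55 ± 0.38, adjusted p = 0.277), and was called lower with TMM scaling (-0.87, adjusted p = 0.0397).

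For the intestine, the bin of mir-60, II:6300001-6400000, rose by 1.09 ± 0.30 on the log2 scale (edgeR adjusted p = 0.00637), with 581, 567 and 541 RPM in RNase replicates 1, 2 and 3 and 217, 265 and 307 RPM in ΔPAZ replicates 1, 2 and 3. It was not called with library sizes without rRNA bins (0.81, adjusted p = 0.0816). The bin of mir-71, a broadly expressed microRNA linked to lifespan, rose by 1.63 ± 0.41 (adjusted p = 0.00412). That bin also holds mir-2, mir-79, mir-1019, 6 tRNA genes and a snoRNA gene, so the rise cannot be assigned to mir-71. The 10 marker bins summed to 18795 to 21393 RPM in the RNase mutant and 10063 to 14594 RPM in ΔPAZ, and the lowest value of any marker bin was 31.7 RPM, that of lsy-6 in ΔPAZ replicate 2. Whether the makeup of tissues differed between the alleles was not tested.

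The piRNA clusters of chromosome IV held a larger share of reads in the RNase mutant, but in the first of them through a bin with a microRNA gene. The first and second cluster held 87147 and 14074 RPM on average in the RNase mutant, and 41597 and 9402 RPM in ΔPAZ. Sense reads at all piRNA loci came to only 3155 RPM in the RNase mutant and 981 RPM in ΔPAZ. Most reads in the bins of each cluster were thus not sense piRNA reads, and the shares below do not measure piRNAs. The cluster at IV:4500001-7000000, with 2816 piRNA genes in 25 bins, held 8.95, 8.65 and 8.55% of genome-mapped reads in RNase replicates 1, 2 and 3 and 5.37, 2.68 and 4.43% in ΔPAZ replicates 1, 2 and 3. The groups did not overlap, and the ratio of the means was 2.10 (exact permutation p = 0.1, n = 3 each). In the RNase mutant most of these reads fell in the bin IV:5500001-5600000, which holds mir-228 and mir-790 beside 211 piRNA genes. It stood at 66209, 62817 and 60183 RPM in RNase replicates 1, 2 and 3 and at 20372, 6434 and 18957.5 RPM in ΔPAZ replicates 1, 2 and 3 (log2 fold change 2.05 ± 0.55, edgeR adjusted p = 0.00612). Without that bin the cluster held 2.41 ± 0.105% in the RNase mutant and 2.63 ± 0.652% in ΔPAZ, which overlap, a ratio of 0.914 in the other direction.

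Over its 25 bins, 6 rose and 0 fell (24.0% higher, against 24.9% of all bins), and with TMM scaling 6 rose and 2 fell. One of the 6 was IV:6300001-6400000, with 44 piRNA genes, at 4290, 4440 and 3508 RPM in RNase replicates 1, 2 and 3 and 615, 446 and 1038 RPM in ΔPAZ replicates 1, 2 and 3 (log2 fold change 2.54 ± 0.36, edgeR adjusted p = 2.70e-05). The bin IV:4700001-4800000, which had the second most reads of the cluster, overlapped between groups and was not called (-0.82 ± 0.74, adjusted p = 0.415).

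The cluster at IV:13500001-17200000, with 11388 piRNA genes in 37 bins, held 1.44, 1.33 and 1.45% of reads in RNase replicates 1, 2 and 3 and 0.886, 0.773 and 1.16% in ΔPAZ replicates 1, 2 and 3. The groups did not overlap (ratio of means 1.497, exact permutation p = 0.1, n = 3 each), and wild type had 1.44%. In it 12 bins rose and 3 fell (32.4 and 8.11%, against 24.9 and 9.44% of all bins), with a median log2 fold change of 0.63. With TMM scaling 9 rose and 6 fell, and with library sizes without rRNA bins 7 rose and 5 fell. The bin IV:13600001-13700000, with 221 piRNA genes, rose by 1.41 ± 0.34 (edgeR adjusted p = 0.00280) and IV:16300001-16400000, with 189, by 1.14 ± 0.28 (adjusted p = 0.00319). The bin with the most piRNA genes of those described, IV:15600001-15700000 with 390, stood at 1399, 1119 and 1359 RPM in RNase replicates 1, 2 and 3 and 1111, 434 and 801 RPM in ΔPAZ replicates 1, 2 and 3, and was not called (0.73 ± 0.37, adjusted p = 0.132). In the other 113 bins of chromosome IV, 29 rose and 11 fell (median 0.46), and with TMM scaling 25 rose and 20 fell.

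Chromosome X, of which males have a single copy, held a larger share of reads in the RNase mutant while its median bin lay near 0 on the log2 scale. The share was 12.5, 11.4 and 11.3% in RNase replicates 1, 2 and 3 and 7.75, 4.34 and 6.07% in ΔPAZ replicates 1, 2 and 3, with no overlap (ratio of means 1.94, exact permutation p = 0.1, n = 3 each). Without the bins of mir-81 and mir-82 and of mir-54 to mir-56 the ratio was 1.55, and without every X bin that holds a microRNA gene it was 1.31, with overlapping groups (3.59 to 4.21% in the RNase mutant, 2.43 to 3.81% in ΔPAZ). Bin by bin, 27 of 178 rose and 21 fell (15.2 and 11.8%), with a median log2 fold change of -0.056, and with TMM scaling 20 rose and 28 fell (median -0.31). The medians of the autosomes were 0.43 for I, 0.31 for II, 0.52 for III, 0.48 for IV and 0.16 for V. Bins in the centres of the autosomes (75 of 277 higher and 17 lower) and in the arms (148 of 550 higher and 57 lower) had medians of 0.35 and 0.36; with TMM scaling 68 rose and 41 fell in the centres, and 123 rose and 101 fell in the arms.

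**Figure D5:**
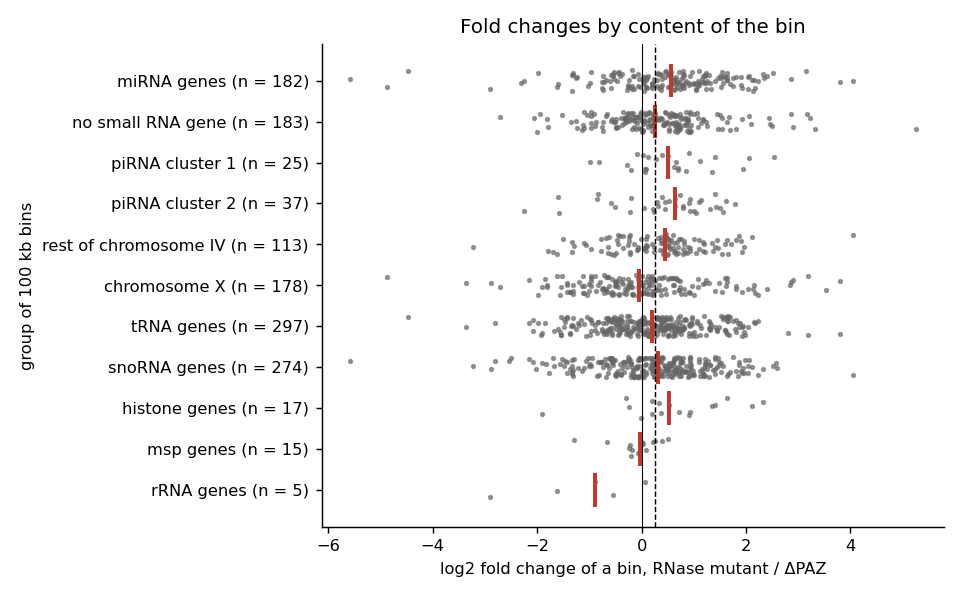
Log2 fold change of single 100 kb bins, RNase mutant over ΔPAZ (horizontal axis), by what the bin holds (rows; a bin can be in several), with the median of each row in red and that of all bins, 0.25, dashed. The medians run from -0.89 for bins with rRNA genes to 0.63 for the second piRNA cluster, and the rows overlap widely.

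Of the 12 largest rises, 5 were in bins without any annotated small RNA gene, a class of 183 among the 1006 bins. Rises were not more frequent in that class (24.0%, against 24.9% of all bins). The bin V:9800001-9900000, with 21 protein-coding genes, stood at 1943, 1974 and 2237 RPM in RNase replicates 1, 2 and 3 and at 45.4, 57.3 and 56.6 RPM in ΔPAZ replicates 1, 2 and 3 (log2 fold change 5.26 ± 0.55, edgeR adjusted p = 5.59e-07). The ΔPAZ libraries lay near the means of 74.6 RPM in the null and 70.9 RPM in wild type, so the RNase libraries stand alone. The bin III:2500001-2600000, with 15 protein-coding genes, was also far higher in the RNase mutant: 1592, 1410 and 1667 RPM in RNase replicates 1, 2 and 3, 229, 119 and 124 RPM in ΔPAZ replicates 1, 2 and 3, and means of 92.7 RPM in the null and 96.1 RPM in wild type (3.32 ± 0.33, adjusted p = 2.47e-07). Which gene of a bin the reads come from cannot be read from these counts.

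In other bins the null was high as well. The bin II:10900001-11000000 stood at 3105, 2393 and 3579 RPM in RNase replicates 1, 2 and 3 and at 302, 312 and 356 RPM in ΔPAZ replicates 1, 2 and 3 (log2 fold change 3.22 ± 0.31, edgeR adjusted p = 2.47e-07), with means of 2833 RPM in the null and 470 RPM in wild type. The bin III:10000001-10100000, which holds mir-1020, stood at 4681, 4187 and 4432 RPM in RNase replicates 1, 2 and 3 and at 421, 339 and 730 RPM in ΔPAZ replicates 1, 2 and 3 (3.15 ± 0.35, adjusted p = 8.17e-07), with means of 3201 RPM in the null and 615 RPM in wild type. In both, the RNase mean lay above the null mean and the ΔPAZ mean below the wild type mean. In V:200001-300000 the null mean of 2951 RPM was above the RNase libraries (573, 459.5 and 823 RPM in replicates 1, 2 and 3), which were above ΔPAZ (50.4, 72.3 and 79.6 RPM; 3.17 ± 0.32, adjusted p = 2.47e-07).

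Chromosome X, with 178 of the 1006 bins, gave 5 of the 12 largest rises, among them the bin of mir-54 to mir-56. It was also among the 12 largest falls, with X:200001-300000, X:3300001-3400000, X:16700001-16800000 and X:2100001-2200000, described below. The bin X:9100001-9200000 stood at 1166, 351 and 486 RPM in RNase replicates 1, 2 and 3 and at 40.3, 60.3 and 69.1 RPM in ΔPAZ replicates 1, 2 and 3 (log2 fold change 3.54 ± 0.47, edgeR adjusted p = 9.68e-06). RNase replicate 1 was the highest there, and without it the log2 fold change was 2.86. The bins X:1500001-1600000 (3.18 ± 0.38), X:1100001-1200000 (2.90 ± 0.45) and X:9900001-10000000, which holds mir-49 (2.87 ± 0.59), rose too, as did III:9400001-9500000 with 3 snRNA genes (3.47 ± 0.30, adjusted p = 1.08e-07).

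The largest fall was in a bin that ranked among the 10 most abundant. The bin I:2900001-3000000, with mir-4931, a snoRNA gene and 17 protein-coding genes, stood at 1030, 1021 and 1154 RPM in RNase replicates 1, 2 and 3 and at 28895, 62100 and 62973 RPM in ΔPAZ replicates 1, 2 and 3 (log2 fold change -5.59 ± 1.04, edgeR adjusted p = 0.000319). It held 0.107 ± 0.00745% of reads in the RNase mutant and 5.13 ± 1.94% in ΔPAZ, beside 0.857% in the null and 4.02% in wild type, where single libraries ran from 0.300 to 8.24%. The bin I:10800001-10900000, with mir-1817 and a tRNA gene, fell as well (890.1, 703 and 717 RPM in RNase replicates 1, 2 and 3, against 5272, 31309.8 and 14682 RPM in ΔPAZ replicates 1, 2 and 3; -4.47 ± 0.94, adjusted p = 0.000902). Without ΔPAZ replicate 2, the highest, its log2 fold change was -3.70.

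At a far lower level, X:200001-300000, the bin of mir-258.1 and mir-258.2, fell too. It stood at 4.43, 9.44 and 10.7 RPM in RNase replicates 1, 2 and 3 and at 187, 206 and 299.6 RPM in ΔPAZ replicates 1, 2 and 3 (log2 fold change -4.87 ± 0.45, edgeR adjusted p = 1.26e-07), and the mean was 14.9 RPM in the null and 491 RPM in wild type. The bin X:16700001-16800000 had the same order, at 26.1, 26.1 and 25.9 RPM in RNase replicates 1, 2 and 3 and 217, 176 and 187.5 RPM in ΔPAZ replicates 1, 2 and 3 (-2.88 ± 0.40, adjusted p = 2.04e-05), with means of 28.7 RPM in the null and 453.5 RPM in wild type. The bin V:17700001-17800000 fell as well (-2.49 ± 0.37, adjusted p = 4.77e-05), with 28.3 to 42.0 RPM in the RNase mutant, 154 to 282 RPM in ΔPAZ, and means of 34.4 RPM in the null and 414 RPM in wild type. In these 3 bins the RNase libraries were near the null level and the ΔPAZ libraries lay between it and wild type.

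Single ΔPAZ libraries carried much of the difference in 2 further falls. In I:12300001-12400000 the ΔPAZ libraries ranged from 241 to 2170 RPM, against 88.6 to 116 RPM in the RNase mutant (log2 fold change -3.31 ± 0.52, edgeR adjusted p = 6.56e-05), and without ΔPAZ replicate 1 the log2 fold change was -2.15. In X:2100001-2200000 the RNase libraries stood at 19.9, 25.4 and 17.0 RPM in replicates 1, 2 and 3 and the ΔPAZ libraries at 30.2, 342 and 35.6 RPM (-2.71 ± 0.64, adjusted p = 0.00247), and without ΔPAZ replicate 2 the bin was not called (-0.67, adjusted p = 0.274). The other falls among the 12 largest were in X:3300001-3400000 (-3.36 ± 0.53), IV:1400001-1500000 (-3.23 ± 0.55), I:13300001-13400000 with 4 tRNA genes (-2.82 ± 0.59), V:20400001-20500000 (-2.55 ± 0.43) and the rRNA bin of chromosome V.

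Histone genes, whose mRNAs are sources of secondary small RNAs when PRG-1 is lost, were in 17 bins, of which 7 rose and 1 fell (41.2 and 5.88%, against 24.9 and 9.44% of all bins; median log2 fold change 0.53). With TMM scaling 6 rose and 2 fell, and with library sizes without rRNA bins 5 rose and 1 fell. The bin V:8800001-8900000, with his-17, his-18 and his-49 to his-52, stood at 2391, 2089 and 2900 RPM in RNase replicates 1, 2 and 3 and at 615, 701 and 1044 RPM in ΔPAZ replicates 1, 2 and 3, with no overlap (1.64 ± 0.37, edgeR adjusted p = 0.00152). The bin IV:11300001-11400000, with his-45 to his-48 and his-58 beside mir-59, rose by 2.12 ± 0.40 (adjusted p = 0.000324). The histone bin with most reads, II:13800001-13900000, overlapped between groups, with ΔPAZ replicate 2 the highest of the 6 libraries at 4402 RPM, and was not called (0.38 ± 0.78). Without that library its log2 fold change was 1.70, still not called.

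Major sperm protein (msp) genes, highly active genes of the sperm line, were in 15 bins, of which 0 rose and 1 fell by the edgeR test, against 24.9 and 9.44% of all bins. Their median log2 fold change was -0.031, and -0.28 with TMM scaling, where 0 rose and 2 fell. The 15 bins summed to 9641 to 10165 RPM in the RNase mutant and 7815 to 12381 RPM in ΔPAZ, which overlap. The bin that fell, IV:10100001-10200000 with msp-38, stood at 679, 607 and 685 RPM in RNase replicates 1, 2 and 3 and at 1182, 1552 and 2085 RPM in ΔPAZ replicates 1, 2 and 3 (log2 fold change -1.29 ± 0.36, adjusted p = 0.00780). The bin with msp-53, msp-55 and msp-57, in the first piRNA cluster, overlapped between groups and was not called (0.50 ± 0.32).

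Bins with other classes of genes gave shares closer to those of all bins. Of 297 bins with tRNA genes 63 rose and 33 fell (median 0.20), and with TMM scaling 52 rose and 56 fell. Of 274 bins with snoRNA genes 72 rose and 32 fell (median 0.31), and with TMM scaling 62 rose and 54 fell. Of 68 with snRNA genes 13 rose and 5 fell (median 0.16), and with TMM scaling 11 rose and 9 fell. Of 183 bins with no annotated small RNA gene 44 rose and 15 fell (24.0 and 8.197%; median 0.25), near the shares of all bins, and with TMM scaling 39 rose and 24 fell.

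Among known targets of piRNA silencing, the bin of xol-1, a switch gene of sex determination, rose. X:8000001-8100000 stood at 324, 477 and 275.5 RPM in RNase replicates 1, 2 and 3 and at 113, 54.3 and 73.3 RPM in ΔPAZ replicates 1, 2 and 3 (log2 fold change 2.18 ± 0.43, edgeR adjusted p = 0.000568), and the null and wild type means were 81.0 and 102 RPM. It also holds mir-784, mir-5553 and 15 other protein-coding genes, so the reads cannot be assigned to xol-1. The bin of bath-45, II:13100001-13200000, was not called (0.33 ± 0.31, adjusted p = 0.436), at 1132, 995 and 998 RPM in RNase replicates 1, 2 and 3 and 675, 707 and 1095 RPM in ΔPAZ replicates 1, 2 and 3, which overlap.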

How the data were processed

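The submitters' processing notes name cutadapt 3.7 and FastQC 0.12.0. Aligner and multi-mapping rules: not given in the sources used here. RNA was extracted with a small RNA kit and treated with acid pyrophosphatase, so RNAs with a 5′ triphosphate could enter, per the labels' protocols. The authors deposited counts of reads for each library, each of 15913 piRNA names and each 100 kb bin of ce11, and piRNA totals in RPM, per the file headers; RPM is reads per 1000000 genome-mapped reads. RPM values here were recomputed from the deposited counts. One non-numeric cell of the piRNA table was read as 0, and the ΔPAZ columns, which began with their total, were moved up by 1 row.

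Bins were annotated with Ensembl release 115 (WBcel235, the same assembly as ce11), with 15 of 260 microRNA genes placed by RefSeq's table. Bin counts went into edgeR 4.0.16 (R 4.3.3) with its quasi-likelihood F test: 1 fit over all 16 libraries, genome-mapped reads as library size, and bins with 10 or more reads in 3 or more libraries. A bin was called at an adjusted p (Benjamini-Hochberg) under 0.05. The fit was tested on simulated data first. Standard errors (SE) were derived from each F statistic. Single measures were compared by exact two-sided permutation tests, with Benjamini-Hochberg adjustment over 13. The planned test of single piRNAs was not made, since RNase and ΔPAZ columns do not share a row order. Replicates differed by more than sampling noise (lowest chi-square over degrees of freedom 43.8).

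The members and lists were chosen with earlier results of these data known. Bins are named by rule: the 12 largest rises and 12 largest falls among called bins whose groups do not overlap, the 10 with most reads, every bin of the microRNA families, markers and the xol-1 and bath-45 pair, and up to 4 per other list. Alternatives were TMM factors, DESeq2 1.42.0, other library sizes and filters, the 6 libraries alone, a replicate block, thinning, and each replicate left out. Scaling without rRNA bins and the 100 top rows at equal piRNA reads were added after seeing the data. Intervals and shares of reads cover counting error only, since amplified reads are not independent molecules.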

Additional observations from a re-analysis of the deposited data

Results flagged for a closer look

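Null and wild type libraries (5 each) were looked at for a library far from the other 4 (Dixon's criterion) in the single measures and in the 24 bins with the largest differences, 78 groups in all, and 5 stood out. Chance gives about 1 in 20 groups. The 100 most read piRNA rows held 91.3% of piRNA reads in wild type replicate 4, above the other wild type libraries. The bin IV:12700001-12800000 held 27.3% of reads in wild type replicate 3. The bin V:9800001-9900000 had 199.5 RPM in null replicate 2, still below the 1943 RPM of the lowest RNase library. The bin IV:1400001-1500000 had 783 RPM in null replicate 5 and 2327 RPM in wild type replicate 1, each the highest of its group.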

How the results depend on the processing

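Of 60 named bins 43 were called, and 37 of these kept call and direction under all 15 alternatives that could be fitted; of the 43, 0 reversed. Counts of bins moved with the scaling: lower bins numbered 171 with TMM factors, 197 with DESeq2 and 143 with library size without the 3 bins with most reads, against 95, and higher bins numbered 152 with library size without rRNA bins, against 250. The cause was not tested. Bins not called that changed sign were mir-52's (-0.027 with DESeq2), the histone bin II:13800001-13900000 (-0.047 without rRNA bins, -0.0099 without ΔPAZ replicate 1) and the msp bin II:4800001-4900000 (0.18 with the replicate block and -0.43 to 0.41 with each replicate left out, 0.045 without ΔPAZ replicate 3).

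Leaving out each replicate gave 266 to 344 called bins, 187 to 268 higher and 70 to 99 lower. The ratios of RNase to ΔPAZ means ran over 2.75 to 4.69 for all piRNA reads and 1.48 to 2.75 for 21U-only RPM. They ran over 4.81 to 7.46 for other sense and 2.14 to 3.51 for antisense RPM. For the 21U-only share they were 0.529 to 0.584 and for the genome-mapped share 1.47 to 1.63. For piRNA rows detected at equal depth and at equal piRNA reads they were 3.76 to 6.86 and 1.72 to 2.37. The top 100 rows gave 0.484 to 0.552, and the 10 bins with most reads of each library 0.678 to 0.744. The clusters gave 1.78 to 2.45 and 1.38 to 1.70, and chromosome X 1.70 to 2.26. With total reads as the denominator the ratios were 4.84, 2.66, 8.57 and 3.89 for all, 21U-only, other sense and antisense reads. With library sizes without rRNA bins the ratios fell, to 2.70 for all and 4.70 for other sense reads. They were then 1.78 and 1.25 for the clusters and 1.64 for chromosome X. The ratios of 21U-only and antisense reads fell with that scaling as well.

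Same-numbered libraries did not deviate together (correlations -0.060, -0.077 and -0.073). The deviations are from means of 3 libraries and so depend on one another, and they cannot tell whether libraries were prepared together. With the replicate block 389 bins were called, 274 of them higher. Depth limits ΔPAZ most: replicate 1 had 258 piRNA reads.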
